A study of Mus musculus with 295 samples.

Results

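Cytochrome P450 genes were examined in adipose tissue of 295 F2 mice. The genes were those whose symbol in the array's probe table begins with Cyp and a number, without Cyp51 and Cyp11a1, and whose probe was measured in at least 90% of the arrays. This gave 63 of the 11454 genes measured, through 78 of 22894 probes. All 78 P450 probes of the platform passed that rule. The mice came from intercrossing the inbred strains C57BL/6J and C3H/HeJ, and every mouse lacked ApoE, so no animal with the gene serves as a control. They ate a Western diet, high in fat, between weeks 8 and 24 of age. RNA of each mouse, labelled with Cy3, was hybridised to 1 array against a pool (Cy5) of equal parts of all the RNAs. A value is thus the log2 ratio of a mouse to the average of the cross, and 0 is the level of the pool.

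The labels name neither sex nor genotype nor fat depot, so all mice form 1 group, and the design gives the spread of each gene over mice and the relations between measures. The mice nevertheless fell into separate sets. Eif2s3y, a Y-linked gene, lay at or below -4.16 in 142 mice and at or above -0.10 in the other 153. Of those 153, 48 arrays carried transcripts of epididymis, with a score of at least 1.45 against at most 0.31 in all other arrays. A score is the mean z-score over mice of the measured genes of a list. Results are therefore also given by set: 142 mice low in Eif2s3y, 105 high in it whose arrays lack epididymis transcripts, and 48 whose arrays carry them. These values stand separately beside each main result. A score of steroid-producing tissue (Cyp11a1, Hsd3b1, Nr5a1, Nr0b1, Inha) also had a gap, between 0.64 and 0.84. It left 55 arrays above, of which 53 were Eif2s3y-low and 2 carried epididymis transcripts. Ratios to a pool do not give absolute levels, so the labelled tissue could not be checked by the level of fat cell markers. Of the adipocyte list, 12 of 23 genes were measured, with a mean pairwise r of 0.63. In bulk tissue, fewer cells of a type and less RNA per cell cannot be told apart.

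Cytochrome P450 enzymes are haem proteins of the endoplasmic reticulum or the mitochondrion that insert an oxygen atom into their substrate, taking electrons from a reductase or a ferredoxin. The lower-numbered families mostly oxidise drugs, dietary chemicals and unsaturated fatty acids and are best known from the liver. Others make or clear steroid hormones, bile acids, retinoic acid and vitamin D. In fat, P450 enzymes are known for the local handling of fatty acids, retinoids, steroids and fat-soluble pollutants.

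RefSeq promoter windows in the build GRCm38.p6 were found for 45 of the 63 genes, in 51 windows. The 250 bases before the annotated start are shown for 6 genes. Cyp1a1 and Cyp1b1 are shown as the known targets of the aryl hydrocarbon receptor, Cyp2e1, Cyp2j5 and Cyp3a41a for their relations to the macrophage, kidney and liver scores below, and Cyp3a11 as a relative of Cyp3a41a. Capitals mark the letters TATAAA of a TATA box and the core GCGTG of the element bound by the aryl hydrocarbon receptor. They were searched over the whole window on both strands, so that they also appear as TTTATA and CACGC. Neither motif overlaps the other.
Cyp1a1: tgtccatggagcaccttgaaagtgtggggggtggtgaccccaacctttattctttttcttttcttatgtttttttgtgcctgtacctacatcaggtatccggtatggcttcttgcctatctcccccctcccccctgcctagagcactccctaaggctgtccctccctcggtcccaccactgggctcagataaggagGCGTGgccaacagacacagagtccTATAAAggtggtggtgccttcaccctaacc
Cyp1b1: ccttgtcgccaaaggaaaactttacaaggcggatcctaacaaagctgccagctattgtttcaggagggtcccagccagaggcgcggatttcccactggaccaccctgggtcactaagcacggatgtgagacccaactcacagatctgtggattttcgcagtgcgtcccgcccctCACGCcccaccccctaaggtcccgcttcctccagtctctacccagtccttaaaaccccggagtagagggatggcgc
Cyp2e1: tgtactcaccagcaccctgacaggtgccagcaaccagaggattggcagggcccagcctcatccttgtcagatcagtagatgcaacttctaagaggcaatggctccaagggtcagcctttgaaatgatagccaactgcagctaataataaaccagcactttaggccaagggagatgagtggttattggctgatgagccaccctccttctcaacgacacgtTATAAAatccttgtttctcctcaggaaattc
Cyp2j5: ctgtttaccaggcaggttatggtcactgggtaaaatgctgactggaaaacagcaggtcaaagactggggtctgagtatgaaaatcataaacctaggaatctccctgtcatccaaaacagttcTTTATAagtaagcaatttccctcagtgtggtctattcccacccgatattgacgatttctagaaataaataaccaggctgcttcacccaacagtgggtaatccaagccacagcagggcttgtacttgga
Cyp3a11: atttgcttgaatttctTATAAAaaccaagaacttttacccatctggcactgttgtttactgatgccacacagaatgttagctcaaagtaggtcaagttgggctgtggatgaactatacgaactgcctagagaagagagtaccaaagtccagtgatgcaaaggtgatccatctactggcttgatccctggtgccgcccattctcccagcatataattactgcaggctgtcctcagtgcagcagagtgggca
Cyp3a41a: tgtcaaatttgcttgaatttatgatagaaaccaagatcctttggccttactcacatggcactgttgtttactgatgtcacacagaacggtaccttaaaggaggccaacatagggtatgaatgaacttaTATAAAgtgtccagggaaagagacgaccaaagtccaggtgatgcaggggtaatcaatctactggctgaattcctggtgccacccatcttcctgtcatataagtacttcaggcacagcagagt
The windows lie at chr9:57697363-57697612 (Cyp1a1, plus strand), chr17:79715062-79715311 (Cyp1b1, minus strand), chr7:140763569-140763818 (Cyp2e1, plus strand), chr4:96664120-96664369 (Cyp2j5, minus strand), chr5:145879855-145880104 (Cyp3a11, minus strand) and chr5:145720137-145720386 (Cyp3a41a, minus strand). In Cyp1a1 and Cyp2e1 the TATA box begins at positions -30 and -31 from the start, where such boxes usually stand. Cyp2j5 holds the letters on the opposite strand alone. The matches of Cyp3a11 and Cyp3a41a lie farther upstream, at -234 and -122. Cyp1a1 and Cyp1b1 each hold 1 GCGTG core, Cyp1b1 on the opposite strand. TATAAA was found in 17 of the 51 P450 windows (33.3%) and in 12.4% of 32851 windows of all genes. GCGTG was found in 10 of 51 (19.6%) and in 28.2% of all windows. These matches describe letters in a window, and many of the P450 genes are close relatives. Whether the receptor binds at any marked GCGTG, in Cyp1a1 and Cyp1b1 too, was not tested.

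Cyp2j13, Cyp1a1, Cyp17a1, Cyp2e1, Cyp2j5, Cyp4f15 and Cyp4f14 were the 7 P450 genes with an SD above 1 on the log2 scale. They are 11.1% of the P450 genes, against 3.68% of all genes. The median SD was 0.37 for the P450 genes and 0.31 for all genes. Between the 5% lowest and the 5% highest mice the ratio spanned at least 4-fold for 15 P450 genes (23.8%, against 10.3% of all genes) and at least 2-fold for 34 (54.0%, against 45.4%). At the other end, Cyp2g1 (SD 0.12), Cyp4f17 (0.15) and Cyp2b19 (0.15) were nearly level across mice. Arrays were not repeated, so these spreads contain technical error.

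**Figure D1:**
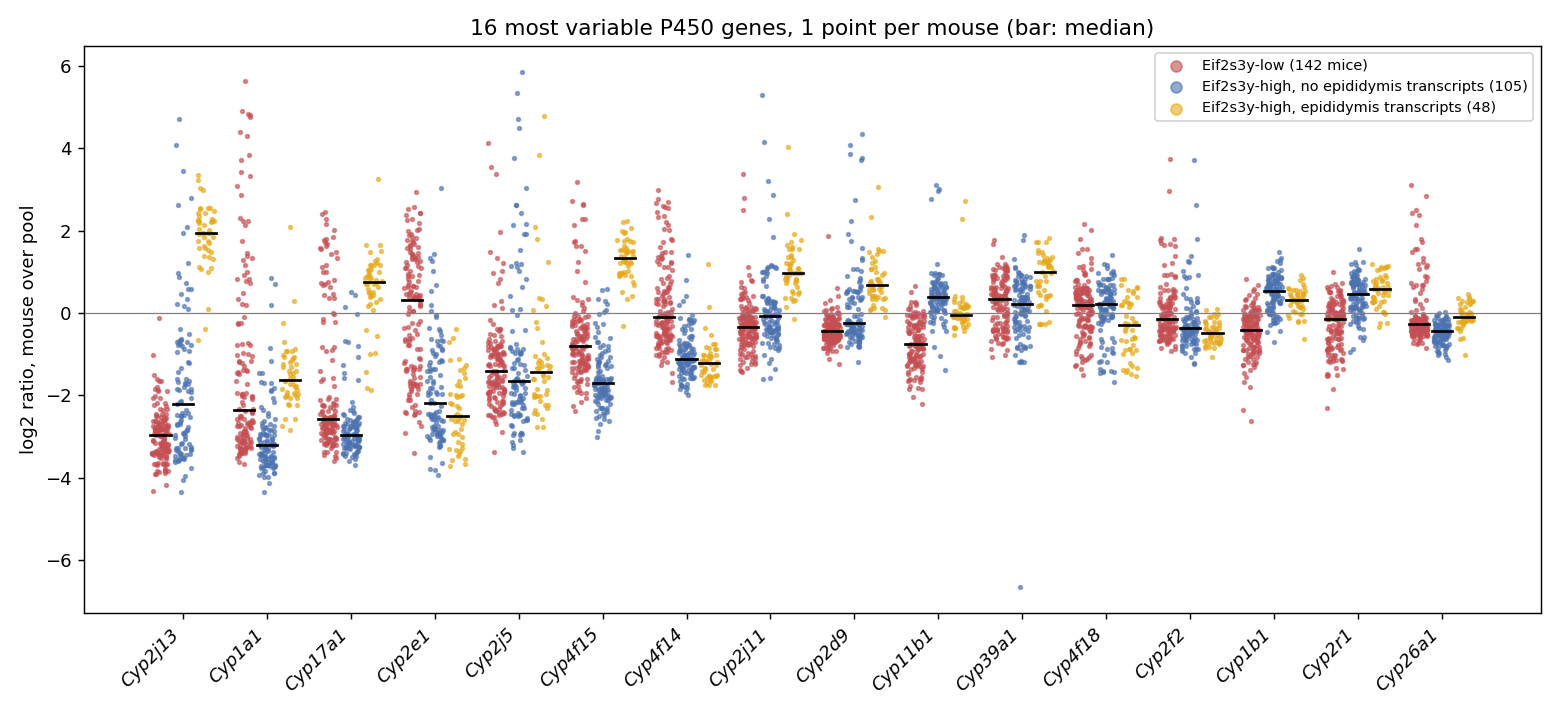
Log2 ratios (mouse over pool, vertical axis) of the 16 P450 genes with the largest SD, 1 point per mouse, coloured by set, with a bar at each set's median. Cyp2j13, Cyp17a1 and Cyp4f15 sit highest in the 48 arrays with epididymis transcripts, Cyp2e1 and Cyp4f14 in the Eif2s3y-low mice, and Cyp1a1 has a long upper tail.

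Of the aryl hydrocarbon receptor family, Cyp1a1, which oxidises polycyclic aromatic hydrocarbons and is induced by them, varied most (SD 1.89 ± 0.13, SE, n = 295 mice). Its lowest, median and highest ratios were -4.35, -2.61 and 5.63. The gene lay above the pool in 38 mice. Its highest ratio was 5.63 among Eif2s3y-low mice, 0.86 among Eif2s3y-high mice and 2.09 among arrays with epididymis transcripts, and the sets overlapped widely. Cyp1a2, its neighbour on chromosome 9 and a liver enzyme, had an SD of 0.15 and an r of -0.03 with Cyp1a1. Cyp1b1, the member of the family found mostly outside the liver, had an SD of 0.66 and ran from -2.62 through a median of 0.03 to 1.48. Its median was -0.42 in Eif2s3y-low mice, 0.53 in Eif2s3y-high mice and 0.32 with epididymis transcripts.

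Among family 2, Cyp2e1, which oxidises ethanol, acetone and other small molecules, had an SD of 1.68 ± 0.05, and the span between those same limits was 35.5-fold. Its lowest, median and highest ratios were -3.92, -1.35 and 3.02. The median was 0.32 in Eif2s3y-low mice, -2.17 in Eif2s3y-high mice and -2.50 in those with epididymis transcripts. The first set held most of the mice above the pool, but the ranges overlapped (-3.39 to 2.95, -3.92 to 3.02 and -3.71 to -0.39). Cyp2c23, an arachidonic acid epoxygenase best known from the kidney, varied far less (SD 0.34 ± 0.02). It ran from -0.76 through 0.08 to 1.45, with medians of 0.14, 0.10 and -0.16 in the 3 sets.

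Cyp2j13, an arachidonate epoxygenase relative, had the largest SD of the family, 2.09 ± 0.08, and spanned 70.3-fold. Its ratios ran from -4.34 through -2.67 to 4.72. The arrays with epididymis transcripts had a median of 1.94 and a lowest value of -0.65, against medians of -2.96 in Eif2s3y-low and -2.21 in Eif2s3y-high mice. No Eif2s3y-low mouse exceeded -0.11. Without the 48 arrays its SD was 1.43. Cyp2j5, a kidney epoxygenase, had an SD of 1.57 ± 0.11 and ran from -3.37 through -1.51 to 5.86. Its medians in the 3 sets were close, at -1.41, -1.66 and -1.42, so its spread lay within sets. Cyp2j11 (SD 0.95) and Cyp2d9, a testosterone hydroxylase of male mouse liver and kidney (SD 0.85), had their highest medians, 0.97 and 0.68, in the arrays with epididymis transcripts.

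Among family 4, which hydroxylates fatty acids and eicosanoids, Cyp4f15 had an SD of 1.30 and Cyp4f14, a leukotriene hydroxylase, of 1.05. Cyp4f15 had medians of -0.81, -1.71 and 1.33 in the 3 sets. Cyp4f14 had medians of -0.09, -1.12 and -1.21, with a lowest, median and highest ratio over all mice of -1.99, -0.71 and 2.99. Cyp4f18, which is known from neutrophils, had an SD of 0.70. Cyp4b1, a lung and bladder enzyme that is also present in fat, ran from -1.91 through -0.05 to 1.86 (SD 0.55), with medians of 0.17, -0.14 and -0.82.

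Of the steroid hormone genes, Cyp17a1, the hydroxylase and lyase on the way to androgens, had an SD of 1.75 ± 0.06 and ran from -3.70 through -2.61 to 3.25. It was high in separate sets of arrays. The median was 0.75 in the 48 with epididymis transcripts, and 0.47 in the 53 Eif2s3y-low arrays with a high steroidogenic score. It was -2.80 in the 89 other Eif2s3y-low arrays and -2.95 in the 105 Eif2s3y-high arrays. These levels describe the arrays, and ranges overlapped: the 53 arrays ran from -3.19 to 2.46 and the 89 from -3.59 to -0.14. Cyp11b1, the last hydroxylase of corticosterone synthesis, had medians of -0.75, 0.39 and -0.05 in the 3 sets (SD 0.81). Its probe carries a rat accession in the platform's annotation, and whether it measures the mouse gene was not tested. Cyp21a1, a hydroxylase of corticosteroid synthesis, had an SD of 0.31 and medians of 0.03, 0.01 and -0.12.

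Among Eif2s3y-low arrays, the median of 20 P450 genes was higher above the steroidogenic gap than below it (31.7%, against 33.9% of all genes), and that of 43 was lower. The genes named next were chosen after their values were seen. Cyp4f14 had a median of 1.22 in the 53 Eif2s3y-low arrays above the gap (range -0.19 to 2.77) and of -0.47 in the 89 below it (-1.68 to 2.99). Cyp26a1, which clears retinoic acid, had medians of 0.32 and -0.35, and ran from -0.56 to 3.12 above the gap and from -0.86 to 1.19 below it. Cyp2f2, a naphthalene oxidase of airway, had medians of 0.26 and -0.32. Cyp4b1 was lower above the gap, with medians of -0.05 and 0.29, and Cyp2c23 had medians of 0.03 and 0.18. These comparisons have no test, since the arrays were divided by their values, and the part of ovary or adrenal tissue was not tested.

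The remaining sterol, retinoid and vitamin D genes varied less. Cyp39a1, an oxysterol hydroxylase, had an SD of 0.77, which fell to 0.66 without 1 mouse whose value stood at the lower limit of the scale (-6.64). Cyp7b1, which hydroxylates oxysterols and steroids, had an SD of 0.54 and medians of 0.11, -0.28 and -0.07 in the 3 sets. The retinoic acid hydroxylases Cyp26a1 and Cyp26b1 had SDs of 0.61 and 0.38. Cyp2r1, which makes the circulating form of vitamin D, had an SD of 0.65 and medians of -0.14, 0.47 and 0.57. Cyp27b1, which makes the active hormone, had an SD of 0.17, and Cyp24a1, which breaks it down, of 0.22.

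Cyp2c23 followed Lep, the gene of the fat cell hormone leptin, more closely than any other P450 gene did. Its slope on Lep, both on the log2 scale, was 0.51 ± 0.03 (SE, r = 0.69, adjusted p = 2.58e-40, limma with Benjamini-Hochberg adjustment over all probes). Cyp2c70, a bile acid hydroxylase of mouse liver (r = 0.53), Cyp20a1, an orphan enzyme (0.50), Cyp4x1 (0.49) and Cyp4a31 (0.47) rose with Lep as well, with r between 0.32 and 0.57 in the single sets. Cyp7b1 (r = -0.29), Cyp17a1 (-0.29), Cyp26a1 (-0.29), Cyp4a12b (-0.28) and Cyp4f13 (-0.27) had the lowest r. In the 3 sets Cyp17a1 had r of -0.09, -0.16 and -0.26, Cyp26a1 of -0.33, -0.23 and -0.38, Cyp4a12b of -0.28, -0.15 and -0.35, and Cyp4f13 of -0.42, -0.42 and -0.02, so the relation of Cyp17a1 did not pass the test in any set. In all, 29 P450 genes were called higher with Lep (46.0%, against 37.2% of all genes) and 10 lower (15.9%, against 29.7%), at an adjusted p under 0.05. With an r of at least 0.4 there were 8 (12.7%, against 6.92%), and none had an r of -0.4 or less, against 4.18% of all genes. The median r with Lep was 0.07 for P450 genes and 0.02 for all genes.

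The relation of Cyp2c23 to Lep was present in each set, with r of 0.56 in Eif2s3y-low mice, 0.71 in Eif2s3y-high mice and 0.81 in those with epididymis transcripts. Spearman's rho was 0.69 over all mice, both permutation p-values were 1e-05 (two-sided, the smallest that 100000 permutations can give) and leaving out the 2 mice with the most extreme Lep gave r = 0.68. The labels name no batch; in the lower, middle and upper range of mouse number r was 0.74, 0.66 and 0.56. In all 12 such relations were permuted, with 24 tests adjusted together, and the adjusted p here was 1.2e-05 for both measures. They include the P450 genes with the highest and lowest r for Lep, the macrophage score and the adipocyte score. They were picked from these same mice, and the adjustment of the permutation tests does not cover that choice. The slope was 0.39 ± 0.05 in Eif2s3y-low and 0.58 ± 0.06 in Eif2s3y-high mice, a difference of 0.19 ± 0.07 (adjusted p = 0.0485, limma). Cyp7b1 and Lep gave r = -0.29 and rho = -0.29 (both permutation p = 1e-05, adjusted 1.2e-05; r = -0.27 without the 2 farthest mice). Its r was -0.22, -0.44 and -0.38 in the 3 sets, but -0.07 in the lower range of mouse number, against -0.43 and -0.35 in the other ranges.

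Cyp2e1 had no relation to Lep over all mice that passed the test (r = -0.03, rho = 0.03, permutation p = 0.605 and 0.611), and its sets went opposite ways. The r was -0.42 in Eif2s3y-low mice, 0.08 in Eif2s3y-high mice and 0.42 with epididymis transcripts. The slope was -1.45 ± 0.26 in the first set and 0.23 ± 0.28 in the second, and the difference of 1.67 ± 0.39 passed the test (adjusted p = 0.000541, limma interaction term). Cyp4f14 behaved alike in direction, with slopes of -0.64 ± 0.19 and 0.45 ± 0.12 and a difference of 1.09 ± 0.25 (adjusted p = 0.000368, limma). Slopes on Lep differed between these 2 sets for 10 P450 genes (15.9%), against 25.6% of all genes. Above the steroidogenic gap, where Cyp4f14 was higher, lay 53 Eif2s3y-low and 0 Eif2s3y-high arrays. The part of this in the differing slopes was not tested. Among the Eif2s3y-low mice below the gap Cyp2e1 had r = -0.37 with Lep.

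**Figure D2:**
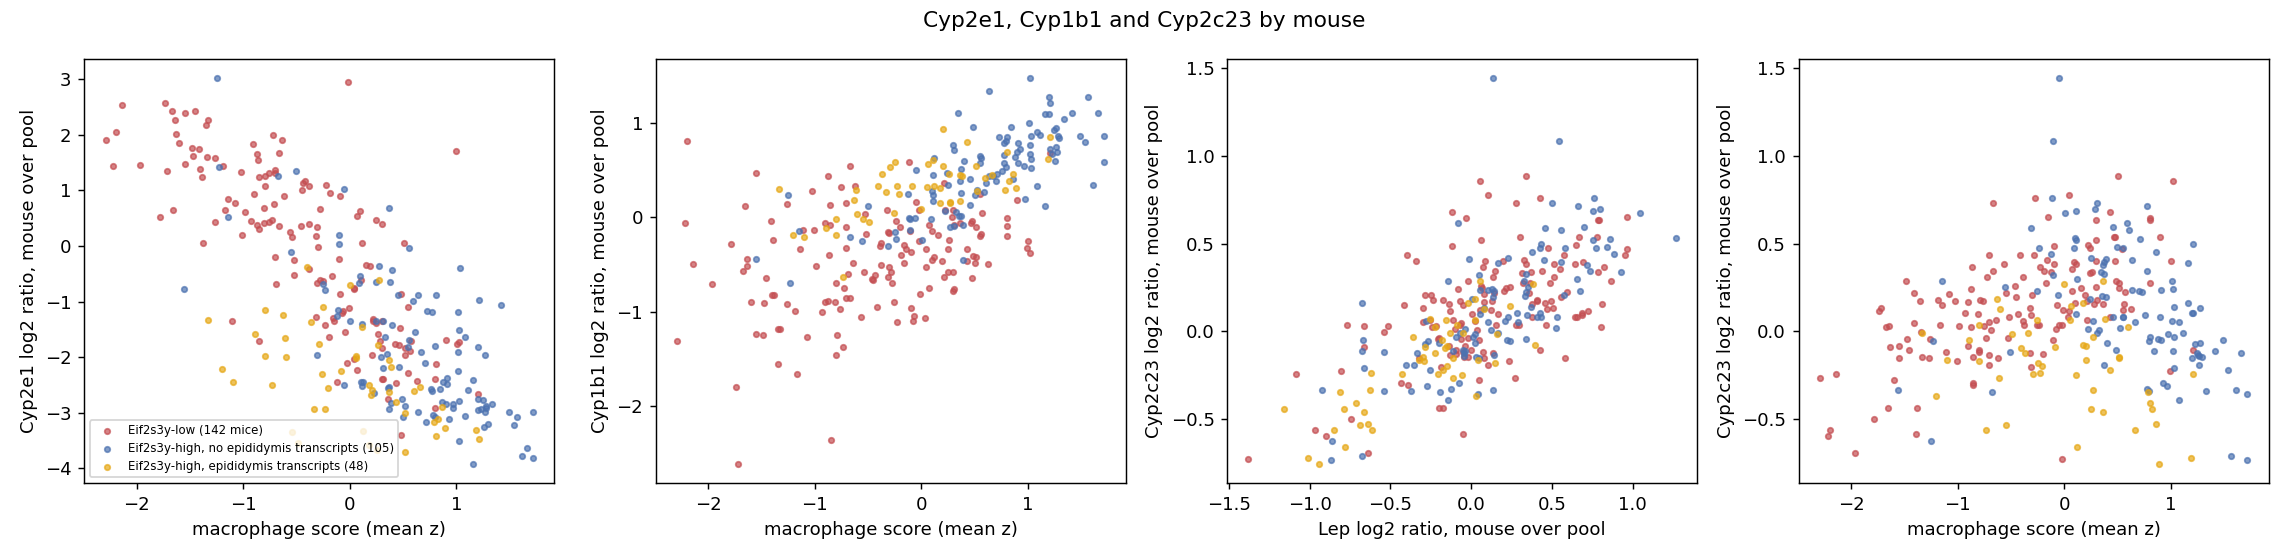
Cyp2e1 and Cyp1b1 against the macrophage score (mean z), and Cyp2c23 against Lep (log2 ratio) and against the macrophage score, 1 point per mouse, coloured by set, with the gene's log2 ratio on each vertical axis. Cyp2e1 falls (r = -0.75) and Cyp1b1 rises (r = 0.64) with the macrophage score, Cyp2c23 rises with Lep (r = 0.69), and Cyp2c23 rises with the macrophage score in Eif2s3y-low mice (r = 0.59) and falls in Eif2s3y-high mice (r = -0.32).

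Cyp2e1 had the most negative r with the macrophage score of all P450 genes. The score covers 17 of 22 listed genes, among them Cd68, Csf1r and C1qb, and ran from -2.29 to 1.72. Cyp2e1 fell by 1.48 ± 0.08 log2 units (SE) per unit of score (r = -0.75, adjusted p = 8.71e-54, limma). The relation was present in each set, with r of -0.77, -0.71 and -0.48, and in each range of mouse number (-0.73, -0.78 and -0.80). Its rho was -0.73, both permutation p-values were 1e-05 (adjusted 1.2e-05) and r was -0.75 without the 2 farthest mice. Cyp4f14 (r = -0.51), Cyp26a1 (-0.39), Cyp2d22, which is abundant outside the liver (-0.33), and Cyp4b1 (-0.33) also fell. In Eif2s3y-high mice Cyp26a1 did not follow this direction (r = 0.11).

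Cyp1b1 rose with the macrophage score, by 0.49 ± 0.03 log2 units per unit (r = 0.64, rho = 0.67, adjusted p = 8.97e-35, limma; both permutation p = 1e-05, adjusted 1.2e-05). It did so in each set (r of 0.31, 0.73 and 0.65) and in each range of mouse number (0.59, 0.71 and 0.69), and without the 2 farthest mice (0.64). The slope was 0.22 ± 0.06 in Eif2s3y-low and 0.50 ± 0.04 in Eif2s3y-high mice, a difference of 0.28 ± 0.08 (adjusted p = 0.00771, limma). Among the Eif2s3y-low mice without steroidogenic transcripts r was 0.71. Cyp2c70 (r = 0.42), Cyp11b1 (0.37), Cyp2r1 (0.30) and Cyp4f16 (0.25) followed. Within sets Cyp2c70 had r of 0.56, 0.01 and 0.05, Cyp11b1 of -0.22, 0.24 and 0.27, Cyp2r1 of 0.08, 0.01 and -0.06, and Cyp4f16 of 0.15, 0.02 and 0.37, so none of these 4 pooled relations held within every set. In total 9 P450 genes were called higher with the score (14.3%, against 26.8% of all genes) and 15 lower (23.8%, against 33.8%). An r of at least 0.4 was reached by 2 (3.17%, against 10.8%), Cyp1b1 and Cyp2c70, and an r of -0.4 or less by 2 (3.17%, against 8.32%), Cyp2e1 and Cyp4f14.

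Cyp2c23 turned its direction between sets. Over all mice it was not related to the macrophage score by the test (r = 0.11, rho = 0.08, permutation p = 0.0606 and 0.192, adjusted 0.0693 and 0.209), with r of 0.05, 0.004 and 0.08 in the ranges of mouse number and 0.08 without the 2 farthest mice. In Eif2s3y-low mice r was 0.59, while it was -0.32 in Eif2s3y-high mice and -0.33 in those with epididymis transcripts. The slopes were 0.23 ± 0.03 in the low and -0.18 ± 0.05 in the high set, and the difference was -0.41 ± 0.05 (adjusted p = 3.49e-10, limma). Cyp7b1 differed as well, with slopes of 0.09 ± 0.05 and 0.55 ± 0.07, a difference of 0.46 ± 0.09 (adjusted p = 3.01e-05, limma). Slopes on the macrophage score differed for 13 P450 genes (20.6%), close to the 20.8% of all genes. The macrophage score itself had medians of -0.38 in Eif2s3y-low, 0.67 in Eif2s3y-high and 0.09 in epididymis arrays, so the sets cover different ranges of it, and the part of that in the differing slopes was not tested.

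With the adipocyte score, which holds Plin1, Pparg, Cebpa, Slc2a4 and 8 other genes, Cyp4b1 and Cyp2e1 rose most. Cyp4b1 rose by 0.45 ± 0.03 log2 units per unit of score (r = 0.67, rho = 0.71, adjusted p = 2.38e-38, limma; both permutation p = 1e-05, adjusted 1.2e-05; r = 0.66 without the 2 farthest mice). Its r was 0.52, 0.48 and 0.43 in the 3 sets and 0.60, 0.82 and 0.61 over the ranges of mouse number. Cyp2e1 rose by 1.32 ± 0.09 (r = 0.63, rho = 0.67, adjusted p = 1.33e-33, limma; both permutation p = 1e-05; r = 0.63 without the 2 farthest mice), with r of 0.47, 0.54 and 0.47 in the sets and 0.67, 0.61 and 0.68 over the ranges. The pseudogene Cyp4b1-ps2 (r = 0.61), Cyp2d22 (0.53) and Cyp2c38 (0.44) followed. Cyp2d22 had r of 0.08 in Eif2s3y-low mice, 0.47 in Eif2s3y-high mice and 0.40 with epididymis transcripts, and its slopes of 0.04 ± 0.04 and 0.26 ± 0.05 differed (adjusted p = 0.0312, limma). The r in the 3 sets was 0.55, 0.34 and 0.41 for Cyp4b1-ps2 and 0.27, 0.32 and 0.11 for Cyp2c38.

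Cyp1b1 fell with the adipocyte score, by 0.48 ± 0.04 (r = -0.60, rho = -0.65, adjusted p = 8.67e-29, limma; both permutation p = 1e-05; r = -0.60 without the 2 farthest mice). It did so in the 3 sets (-0.50, -0.69 and -0.37) and ranges (-0.58, -0.64 and -0.64). Cyp2j13 (-0.55), Cyp17a1 (-0.39), Cyp4f15 (-0.38) and Cyp11b1 (-0.38) fell over all mice. Without the arrays with epididymis transcripts, whose median adipocyte score was -1.02 against 0.49 and -0.02 in the other sets, Cyp2j13 had r = -0.21, Cyp17a1 -0.06 and Cyp4f15 0.01. Cyp2c23 rose over all mice (r = 0.38, rho = 0.35, permutation p = 1e-05 for both; r = 0.35 without the 2 farthest mice, and 0.38, 0.43 and 0.24 over the ranges). Within sets its r was 0.004 in Eif2s3y-low mice, 0.37 in Eif2s3y-high mice and 0.73 with epididymis transcripts, and the slopes of the first 2 differed by 0.21 ± 0.07 (adjusted p = 0.0432, limma). Cyp7b1 fell in Eif2s3y-high mice with r = -0.74, and its slopes of -0.26 ± 0.07 and -0.67 ± 0.06 differed (adjusted p = 0.00256, limma).

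By the test, 27 P450 genes were higher with the adipocyte score (42.9%, against 43.9% of all genes) and 12 lower (19.0%, against 28.7%). An r of at least 0.4 was reached by 6 (9.52%, against 12.9%) and of -0.4 or less by 2 (3.17%, against 9.95%). With the median of each array removed, 16 were higher and 14 lower, so that the share of higher calls went from 69.2% to 53.3%. The median r of all genes with this score also fell, from 0.07 to -0.003. The share of all genes called with medians removed is not given, so the shift is not read as a trait of the P450 genes. Slopes differed between the 2 Eif2s3y sets for 4 P450 genes (6.35%, against 5.44% of all genes).

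**Figure D3:**
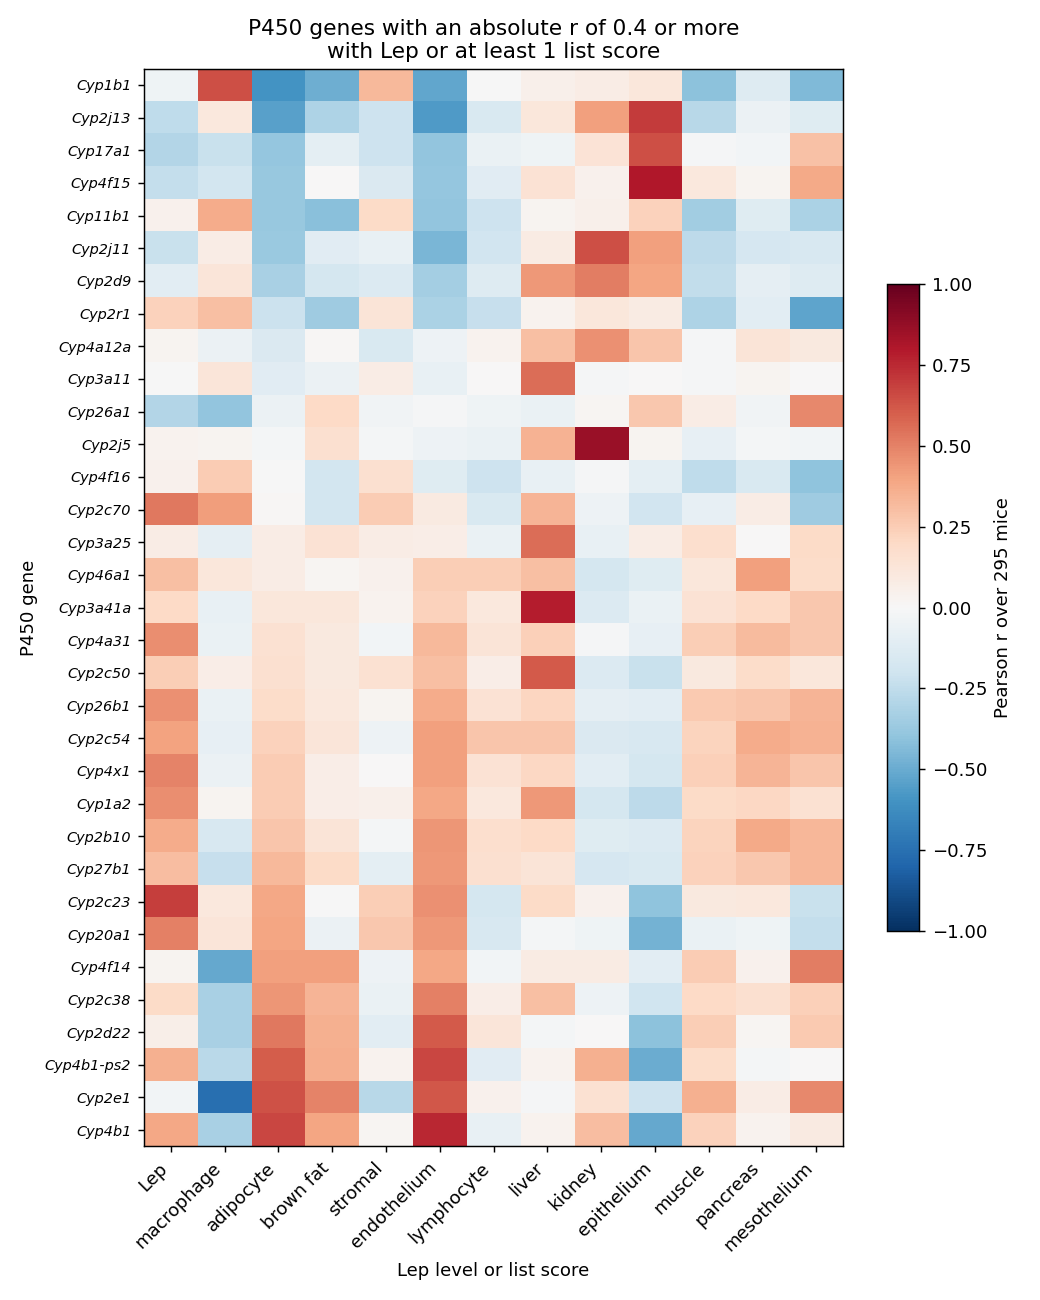
Pearson r over 295 mice (colour) of the 33 P450 genes that reach an absolute r of 0.4 with Lep or at least 1 list score (horizontal axis), ordered by their r with the adipocyte score. Cyp4b1 and Cyp2e1 stand at one end and Cyp1b1 and Cyp2j13 at the other, while Cyp2j5 is marked by the kidney score (0.86) and Cyp3a41a by the liver score (0.78).

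With the endothelium score Cyp4b1 also had the highest r (0.75, and 0.71, 0.56 and 0.55 in the 3 sets), ahead of Cyp4b1-ps2 (0.67), Cyp2e1 (0.62) and Cyp2d22 (0.61), and 34 genes were higher (54.0%, against 44.6%) and 12 lower (19.0%, against 31.3%). At least 0.4 was reached by the r of 11 (17.5%, against 16.7%), close to the background, and of -0.4 or less by 3 (4.76%, against 10.3%). These were Cyp2j13 (-0.57), Cyp1b1 (-0.52) and Cyp2j11 (-0.45), of which Cyp2j13 had r of 0.06, -0.07 and -0.09 in the 3 sets. With the brown fat score 17 were higher (27.0%, against 30.7%) and 8 lower (12.7%, against 24.1%), from Cyp2e1 (r = 0.50) to Cyp1b1 (-0.49). An r of at least 0.4 was reached by 2 (3.17%, against 3.59%) and of -0.4 or less by 2 (3.17%, against 2.31%); within Eif2s3y-high mice Cyp2e1 had r = 0.11 and Cyp1b1 -0.03. With the stromal score 10 were higher (15.9%, against 23.5%) and 6 lower (9.52%, against 19.9%), and 0 reached an r of 0.4, against 3.27%. With the lymphocyte score 13 were higher (20.6%, against 25.4%) and 11 lower (17.5%, against 25.4%), with 0 at an r of 0.4, against 3.31%. With the mesothelium score 31 were higher (49.2%, against 35.9%) and 17 lower (27.0%, against 35.7%), from Cyp4f14 (r = 0.51) to Cyp2r1 (-0.53). In the Eif2s3y-high set these r were -0.06 and -0.36. For it, 3 genes reached an r of 0.4 (4.76%, against 5.67%) and 3 an r of -0.4 or less (4.76%, against 9.07%).

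The liver score holds 13 of 18 listed genes, among them Apoa1, Ttr and Ahsg. Cyp3a41a, a drug and steroid oxidase of female mouse liver, rose by 0.76 ± 0.04 log2 units per unit of score (r = 0.78, rho = 0.46, adjusted p = 1.65e-59, limma; both permutation p = 1e-05, adjusted 1.2e-05). Its r was 0.71 without the 2 farthest mice, 0.88, 0.80 and 0.52 in the sets, and 0.83, 0.58 and 0.82 over the ranges of mouse number. Cyp2c50, an arachidonate epoxygenase, had r = 0.61, the drug oxidases Cyp3a11 and Cyp3a25 had 0.56 and 0.56, Cyp1a2 had 0.43 and Cyp2d9 0.43. The other probes of Cyp3a25 had r of 0.64 and -0.02 with the probe used. In total 30 P450 genes were higher with the liver score (47.6%, against 17.1% of all genes) and 0 were lower, against 17.9%. The 30 include Cyp46a1 (r = 0.30), known from brain, and Cyp21a1 (0.15), known from the adrenal gland, while Cyp2e1, abundant in liver, had r = -0.01 and did not pass. Cyp2a5, Cyp2b10, Cyp2c54, Cyp4x1 and Cyp26b1 are also among the 30. With Cyp46a1 they vary together and with many genes of all kinds, as given below. Their calls are thus not independent, and their part in the excess over all genes was not tested. An r of at least 0.4 was reached by 6 (9.52%, against 0.358%). The rho of Cyp2c50 (0.28), Cyp3a11 (0.16) and Cyp3a25 (0.15) was lower than their r. The score had a median of -0.11 and a maximum of 3.92, with 3 mice at or above 3.51. Mouse 353 had the second highest liver score (3.63) and the highest Cyp3a41a (3.19), Cyp3a11 (3.57), Cyp3a25 (3.10) and Cyp2c50 (2.14).

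With the kidney score (7 of 10 listed genes, among them Kap, Slc34a1 and Aqp2), Cyp2j5 had the largest r of any P450 gene with any of the 12 list scores in the colour plot of r. It rose by 2.44 ± 0.08 log2 units per unit of score (r = 0.86, rho = 0.66, adjusted p = 4.13e-85, limma; both permutation p = 1e-05, adjusted 1.2e-05). Its r was 0.85 without the 2 farthest mice, 0.73, 0.91 and 0.92 in the sets, and 0.88, 0.75 and 0.84 over the ranges of mouse number. Cyp2j11 (r = 0.64), Cyp2d9 (0.51), Cyp4a12a, a fatty acid hydroxylase of male mouse kidney (0.46), and Cyp2j13 (0.41) rose too. Within sets Cyp2d9 had r of 0.02, 0.67 and 0.75 and Cyp4a12a of -0.08, 0.70 and 0.55. The calls were 9 higher (14.3%, against 3.86% of all genes) and 2 lower (3.17%, against 4.31%), and 5 reached an r of 0.4 (7.94%, against 1.12%). Mouse 84, which had the third highest kidney score (2.35), had the highest value of 9 P450 genes, among them Cyp2j5 (5.86), Cyp2j11 (5.29), Cyp2j13 (4.72), Cyp2d9 (4.34), Cyp4a12a (2.47) and Cyp2c23 (1.45).

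**Figure D4:**
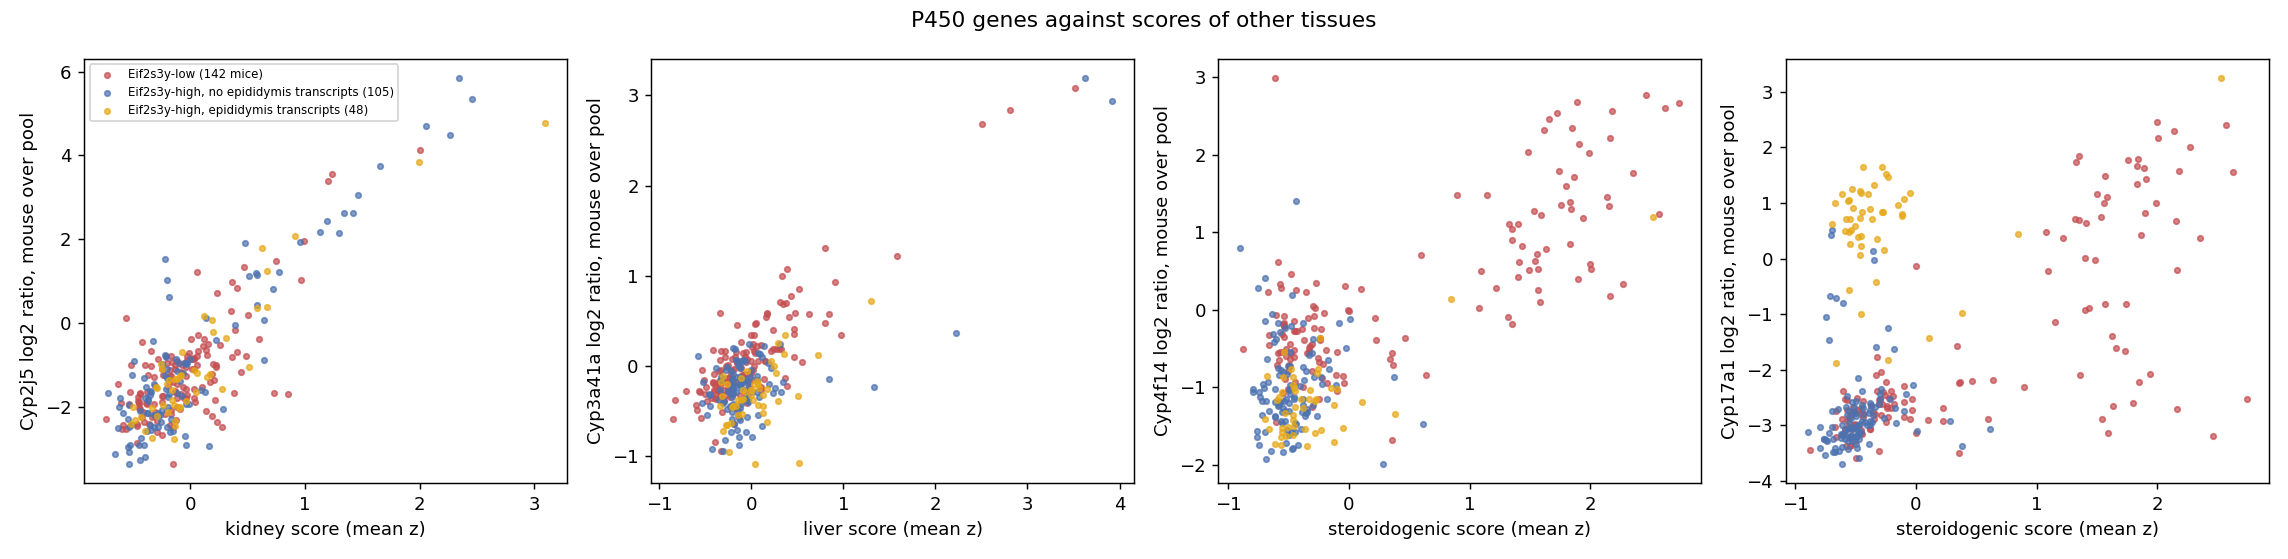
Log2 ratios (vertical axes) of Cyp2j5 against the kidney score, Cyp3a41a against the liver score, and Cyp4f14 and Cyp17a1 against the steroidogenic score (mean z, horizontal axes), 1 point per mouse, coloured by set. Cyp2j5 and Cyp3a41a rise along their scores, and Cyp4f14 and Cyp17a1 are mostly higher to the right of the gap, while Cyp17a1 is also high in arrays with epididymis transcripts.

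With the epithelium score Cyp4f15 had r = 0.80, and 0.64, 0.61 and 0.70 in the 3 sets. Cyp2j13 (0.70), Cyp17a1 (0.65) and Cyp2j11 (0.41) followed over all mice, and had r of 0.22, 0.38 and 0.06 without the arrays with epididymis transcripts. The median epithelium score of those arrays was 1.55, against -0.38 and -0.58 in the other sets. In all 14 P450 genes were higher with the score (22.2%, against 19.4%) and 26 lower (41.3%, against 50.3%). An r of at least 0.4 was reached by 4 (6.35%, against 8.88%) and of -0.4 or less by 5 (7.94%, against 9.24%). With the muscle score 21 were higher (33.3%, against 29%) and 10 lower (15.9%, against 25.8%). With the pancreas score, which holds Prss1 and Cpb1 alone, 23 were higher (36.5%, against 23.2%) and 4 lower (6.35%, against 26.3%). An r of at least 0.4 was reached by Cyp46a1 alone (r = 0.41; 1.59%, against 0.856%), and 0 genes reached -0.4, against 0.00873% of all genes. The pancreas score had a gap between 2.34 and 3.98, with 8 arrays above it. The part of those 8 arrays in these calls was not tested.

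Over the 1953 pairs of P450 genes the median r was 0.02, and 15 pairs among 11 genes had an r of at least 0.8. Values for pairs of all genes are not given, so this median and count are not read as a trait of the P450 genes. Cyp4b1 and its pseudogene Cyp4b1-ps2, which lie in the same group on chromosome 4, had r = 0.97, and their probes may share RNA. Cyp2a5 and Cyp2b10 (0.88), Cyp26b1 and Cyp4x1 (0.88), Cyp2b10 and Cyp2c54 (0.87), Cyp2c54 and Cyp4x1 (0.86), Cyp2c54 and Cyp46a1 (0.84), Cyp2a5 and Cyp2c54 (0.83), Cyp26b1 and Cyp2a5 (0.83), Cyp2b10 and Cyp4x1 (0.83) and Cyp2b10 and Cyp46a1 (0.83) came next. These genes have small spreads, with SDs from 0.21 (Cyp46a1) to 0.38 (Cyp26b1). Genes outside the family varied with them too: Cyp2a5 had an r of at least 0.8 with 671 genes of all kinds (5.86% of 11454), Cyp2c54 with 623, Cyp2b10 with 585 and Cyp4x1 with 564, whereas Cyp2e1 had 2 such genes and Cyp2c23 had 0. In Eif2s3y-high mice the r of the pairs just named other than Cyp4b1 and its pseudogene was lower, between 0.45 (Cyp2a5 and Cyp2c54) and 0.70 (Cyp26b1 and Cyp4x1). Cyp2a5, Cyp2b10, Cyp2c54, Cyp46a1, Cyp4x1 and Cyp26b1 were all called higher with Lep and with the endothelium, mesothelium, liver and pancreas scores. Those calls are therefore not independent of one another.

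The most negative pair was Cyp1b1 and Cyp2e1 (r = -0.61; -0.36, -0.45 and -0.21 in the 3 sets), followed by Cyp2c54 and Cyp4f16 (-0.56) and Cyp2b10 and Cyp4f16 (-0.55). Cyp2c50 on chromosome 19 and Cyp3a41a on chromosome 5 had r = 0.81.

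**Figure D5:**
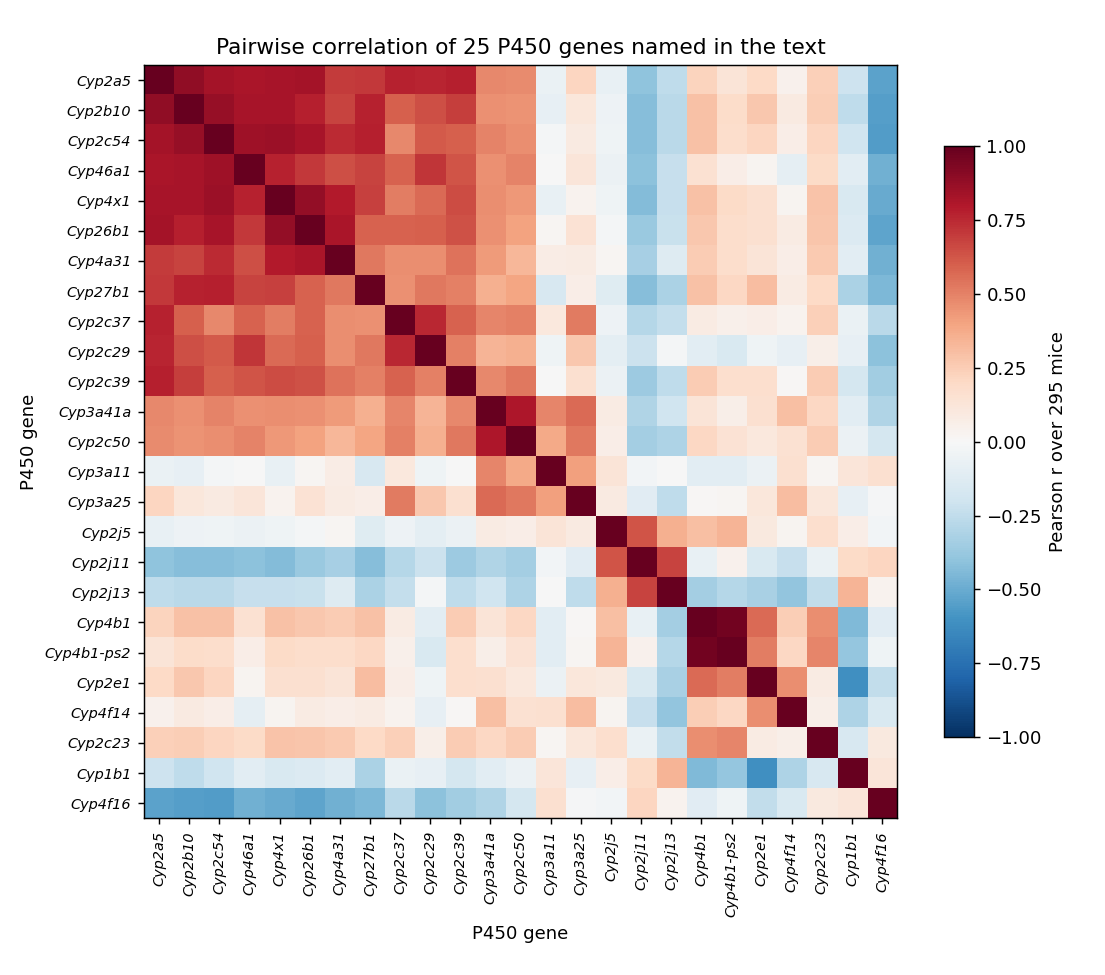
Pearson r over 295 mice (colour) between 25 P450 genes, each on both axes. Cyp2a5, Cyp2b10, Cyp2c54, Cyp46a1, Cyp4x1 and Cyp26b1 form a block of high r, Cyp4b1 and Cyp4b1-ps2 a pair at 0.97, and Cyp1b1 and Cyp2e1 the most negative pair at -0.61.

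Genes of a P450 group on a chromosome varied together only in part, by RefSeq gene order. The median r was 0.28 among 9 Cyp2c genes of chromosome 19, 0.24 among 4 Cyp3a genes of chromosome 5 and 0.21 among 5 Cyp2j genes of chromosome 4. It was 0.19 among 7 Cyp4a, Cyp4b and Cyp4x genes of chromosome 4 and 0.03 among 9 Cyp2a, Cyp2b, Cyp2f and Cyp2g genes of chromosome 7. It was -0.04 among 4 Cyp2d genes of chromosome 15 and -0.06 among 5 Cyp4f genes of chromosome 17. The 238 pairs on 1 chromosome had a median r of 0.06, against 0.02 for the others. Relatives can cross-hybridise, and of the 11 genes with several probes some had probes that disagreed. For Cyp2j11, Cyp2b13 and Cyp2b9 the second probe had r of 0.07, -0.06 and 0.00 with the probe used, and for Cyp2j11 the SD was 0.50 with the mean of its probes. The probes of Cyp3a41a had r of 0.94 and 0.34 with the one used, and those of Cyp21a1 and Cyp4b1 of 0.80 and 0.70. For Cyp3a25 the r was 0.64 and -0.02, for Cyp4a14 0.10, and for Cyp2c40 from 0.10 to 0.29.

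Outside the family, the genes most like Cyp2e1 over the 295 mice were Opn3, an opsin gene (r = 0.84), Ddt, which encodes D-dopachrome tautomerase (0.80), Adig, the fat cell gene adipogenin (0.79), Pck1, an enzyme of glyceroneogenesis (0.79) and Slc2a4, the insulin-responsive glucose transporter (0.78). In the 3 sets Opn3 had r of 0.81, 0.72 and 0.52 with Cyp2e1, and Ddt of 0.71, 0.75 and 0.32. Those most like Cyp2c23 were Mosc2, a molybdenum enzyme gene (0.72), Lep (0.69), Pam, which amidates peptide hormones (0.65), Orm2, an orosomucoid (0.65) and Tspan17, a tetraspanin (0.64). Mosc2 had r of 0.68, 0.67 and 0.81 in the sets and Orm2 of 0.49, 0.64 and 0.85.

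Of 10 listed partners of P450 enzymes 5 were measured (Fdx1, Pgrmc1, Alas1, Ephx1 and Ephx2). With the macrophage score Fdx1, the ferredoxin of mitochondrial P450 enzymes (r = -0.57), and Ephx2, the soluble epoxide hydrolase (-0.52), fell and Ephx1, the microsomal one (0.57), rose, so that 1 was higher and 3 lower. With the adipocyte score 3 were higher and 2 lower, with Ephx2 at 0.71, Alas1, the first enzyme of haem synthesis, at 0.42, Fdx1 at 0.35 and the membrane haem protein gene Pgrmc1 at -0.45. With Lep 2 were higher and 1 lower. Of 22 listed regulators and their indicator genes 18 were measured. With the adipocyte score 10 were higher and 3 lower, led by the nuclear receptors Rxrg (0.89), Nr1h3 (0.79), Ppara (0.60) and Rxrb (0.32), with Nqo1 (-0.49), Aldh3a1 (-0.32) and Nfe2l2 (-0.31) lower. With the macrophage score 4 were higher and 5 lower, among them Nfe2l2, the oxidative stress regulator (0.66), Ahrr, the repressor of the aryl hydrocarbon receptor (0.36), its partner Arnt (0.31), Rxrg (-0.39), Nr1h3 (-0.35) and Ppara (-0.60). With Lep 8 were higher and 3 lower, among them Vdr, the vitamin D receptor (0.42), Rxrg (0.39), Nr1h3 (0.30) and Nqo1 (-0.47). The shares of all genes called stand above for each regressor. These r are over all mice, and values by set are not given. With array medians removed, Nqo1, Aldh3a1 and Pgrmc1 had r of 0.80, 0.51 and 0.87 with the epididymis score. Without the 48 arrays with epididymis transcripts, medians kept, their r was 0.06, 0.01 and -0.02. Those arrays had a median adipocyte score of -1.02, and their part in the r given here was not tested.

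The levels of these regulators were set beside single P450 genes as a description, since all share the same arrays. Cyp1b1 had r of 0.54 with Nfe2l2 (0.55, 0.74 and 0.64 in the 3 sets) and of -0.59 with Nr1h3 (-0.59, -0.56 and -0.09). Ahrr, a target of the aryl hydrocarbon receptor, had r of 0.23 with Cyp1a1 over all mice, and 0.50, -0.14 and -0.22 in the 3 sets. Nqo1 had r of 0.26 with Cyp1a1, and 0.39, 0.04 and 0.37 in the sets. Other genes tied to this receptor differed in sign. Over all mice the r with Cyp1a1 was 0.23 for Aldh3a1, -0.03 for Tiparp and -0.22 for Arnt. For Cyp1b1 it was -0.32, and -0.09, -0.24 and -0.11 in the sets. Cyp2e1 had r of 0.69 with Ephx2 and of 0.62 with Ppara, which held in each set (0.58, 0.50 and 0.46 for Ephx2).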

How the data were processed

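The authors deposited ratios, read here as log10. Background correction and normalization are not stated in any source at hand, nor are base and direction. Values were limited at -2 and 2 (527 values), read as 100-fold. The ratio was taken as mouse over pool, since the 48.1% of mice low in Eif2s3y lie at least 17.9-fold below a pool that contains them, which a turned sign could not give. The base was read as log10, which the values do not settle. With log10 the mean linear ratio of Eif2s3y was 1.17, with log2 0.81, on either side of the pool's own level. Fold sizes and SDs rest on this reading, while r, p and calls do not. Of 43365 array pairs 944 had r under -0.3 over all probes, each across the epididymis split, and the labelled dyes were kept. Array medians ran from -0.052 to 0.039 as deposited.

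Multiplication by 3.32 turned the deposited log10 values into log2 ratios. Probes measured in 90% of the 295 arrays were kept (22894 of 23387), and 7762 gaps were filled with probe means. The series text counts 295 mice and the sample text 330. Of several probes for a gene, the one with the largest SD stood for it. Fits of every probe on Lep or a list score used limma 3.58.1 (R 4.3.3), and p-values were adjusted over all probes by Benjamini-Hochberg; shares of all genes leave out the score's own genes. Tests of differing slopes compared Eif2s3y-low with Eif2s3y-high mice without epididymis transcripts. The script was tested on simulated data. Permutation tests used 100000 permutations in Python 3.11.15 with SciPy 1.17.1. The members, gene lists, scores and sets were chosen with earlier results of these data known. Genes were named by rule: the 12 largest and 3 smallest SDs, the 5 highest and 5 lowest called r with Lep, the macrophage score and the adipocyte score, the 10 most positive and 3 most negative pairs, the 5 genes most like Cyp2e1 and Cyp2c23, all steroid, retinoid and vitamin D members, and partners and regulators with an absolute r of at least 0.3. Other genes were named after their values were seen. Sequences come from RefSeq (GRCm38.p6). Each mouse had 1 array, and some probes of a gene disagree, which both bound the precision.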

Additional observations from a re-analysis of the deposited data

Results flagged for a closer look

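The slopes of 27 relations differed between Eif2s3y-low mice and Eif2s3y-high mice without epididymis transcripts at an adjusted p under 0.05 (limma interaction term, Benjamini-Hochberg). The differences are given as the slope in Eif2s3y-high minus that in Eif2s3y-low mice, in log2 units of the gene per unit of the regressor. On Lep, the difference was -0.432 for Cyp1b1, 0.451 for Cyp26a1, -0.25 for Cyp26b1, 0.317 for Cyp2b9, 0.188 for Cyp2c23, 1.67 for Cyp2e1, 0.674 for Cyp2f2, -0.189 for Cyp46a1, -0.219 for Cyp4a31 and 1.09 for Cyp4f14. On the macrophage score, the difference was 0.403 for Cyp11b1, 0.281 for Cyp1b1, 0.401 for Cyp26a1, -0.405 for Cyp2c23, -0.157 for Cyp2c37, -0.366 for Cyp2c70, -0.625 for Cyp2j13, -0.175 for Cyp4a31, -0.197 for Cyp4b1, -0.21 for Cyp4b1-ps2, 0.0754 for Cyp4f13, -0.134 for Cyp4x1 and 0.461 for Cyp7b1. On the adipocyte score, the difference was 0.208 for Cyp2c23, 0.215 for Cyp2d22, 0.495 for Cyp4f18 and -0.407 for Cyp7b1. The sets were formed after the data were seen, and no sex is named in the labels. Of the arrays above the steroidogenic gap 53 were in the Eif2s3y-low and 0 in the Eif2s3y-high set. The part of this in the differences was not tested. Over the 3 regressors 25.6%, 20.8% and 5.44% of all genes passed the same test.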

How the results depend on the processing

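By permutation at p under 0.05, the relations of Cyp2c23 to Lep, of Cyp2e1 and Cyp1b1 to the macrophage score, and of Cyp4b1, Cyp2e1 and Cyp1b1 to the adipocyte score kept their direction and passed in the 3 sets, in the 3 ranges of mouse number and without the 2 farthest mice. Cyp7b1 and Lep did not pass in the lower range of mouse number (permutation p = 0.507), nor Cyp2c23 and the adipocyte score in Eif2s3y-low mice (p = 0.963). Cyp2e1 and Lep turned to r = 0.42 with epididymis transcripts, and Cyp2c23 and the macrophage score to -0.32 in Eif2s3y-high mice and -0.33 with epididymis transcripts. Counts of calls fell in the smaller sets: with Lep, 18 higher and 4 lower in Eif2s3y-high mice and 10 and 2 with epididymis transcripts, and with the macrophage score 4 and 2 in the latter. With the adipocyte score, counts higher and lower were 14 and 7 without epididymis arrays, 10 and 6 in Eif2s3y-low mice, 11 and 4 in Eif2s3y-high mice and 6 and 2 with epididymis transcripts. An absolute r of 0.4 in place of the test left 8 and 0 with Lep, 2 and 2 with the macrophage score and 6 and 2 with the adipocyte score. A fit on ranks gave 14 higher with the macrophage score. With array medians removed, 16 were higher with the adipocyte score and 25 were called with the epithelium score, against 40. Without epididymis arrays 17 were called with the kidney score, against 11. The cause of these last 4 shifts was not tested. For the counts by set, by ranks, with medians removed and without epididymis arrays, shares of all genes are not given. Those counts are therefore not read as a trait of the P450 genes. Read as log2, the median SD would be 0.110. Of the 94 main counts and medians recomputed, 69 stayed within 1.5 times of, or 1 spread from, the reported value. No paired analysis was possible because the labels name no groups. Probes not well above background cannot be told from the ratios.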

Other observations

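A few mice held the highest value of several P450 genes. Mouse 83, an Eif2s3y-low mouse, was highest for 7 genes, Cyp1a2, Cyp27b1, Cyp2a5, Cyp2b10, Cyp2c54, Cyp4x1 and Cyp8b1, whose own spreads are small. Its pancreas score was 1.77, its liver score 0.80 and its muscle score 0.58. Of these genes, Cyp2a5, Cyp2b10, Cyp2c54 and Cyp4x1 vary with many genes of all kinds, as given above. Mouse 111, also Eif2s3y-low, was highest for Cyp2c40, Cyp2c55, Cyp2d34, Cyp3a13 and Cyp4f14 (5 genes), with a Cyp2d34 ratio of 4.88 against 1.84 in the next mouse. Its kidney score was -0.28, its liver score -0.20 and its muscle score 1.13. Mouse 211 had a Cyp2b13 ratio of 5.05 against 1.54 in the next mouse. These mice were chosen after their values were seen. How often they, or mouse 84 above, held the highest value among all genes is not given. Their maxima are therefore not read as a trait of the P450 genes.

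Of the P450 genes left out by the rule, Tbxas1, the thromboxane synthase, rose with the macrophage score (r = 0.96, and between 0.94 and 0.96 within sets), while Ptgis, the prostacyclin synthase, fell over all mice (-0.44), with r of -0.48, 0.11 and 0.19 in the 3 sets.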
